A study of Mus musculus with 6 samples.

Results

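The SWI/SNF chromatin remodelling complex was examined through 10 of its genes, Smarca4, Smarca2, Smarcb1, Smarcc1, Smarcc2, Smarcd1, Smarcd2, Smarce1, Arid1a and Pbrm1. All probe sets paired with 1 of these symbols alone were taken, which gave 10 of 18193 genes and 25 of the 45037 probe sets on the array that were not controls. The genes were named as subunits of 1 complex, and the set was selected on the log2 fold changes of this same comparison, in which the probe sets of Smarca4 had been seen to disagree. Their differences between groups are therefore given as a description, without p-values. RNA came from GC1-Spg, an established mouse cell line described by its labels as spermatogonial, the mitotic germ cells of the testis. The control group was transfected with scrambled siRNA and the other with siRNA against mrhl, a noncoding RNA, both at 100 nM, and RNA was taken 44 h after transfection. Each group held 3 biological replicates, 1 array each, and the design text describes 3 independent experiments. No probe set was paired with mrhl, so its silencing could not be read here. No untransfected cells were measured, so all 6 arrays share the exposure to siRNA.

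SWI/SNF complexes, called BAF and PBAF in mammals, use ATP to slide or evict nucleosomes and so open or close DNA to transcription factors. Each complex carries a single ATPase, either BRG1 (the product of Smarca4) or its paralog BRM (Smarca2), on a scaffold of core subunits. ARID1A marks the BAF form, and the bromodomain protein polybromo (Pbrm1) marks the PBAF form. In male germ cells BRG1 is known to be needed for progress through meiotic prophase.

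The promoters of Smarca4 and Pbrm1 are shown because these genes held the largest increase and the largest decrease among the 21 SWI/SNF probe sets bright enough to be tested. The sequences are from RefSeq on GRCm38.p6, plus strand, 5′ to 3′, with CG dinucleotides in capitals, and each stops before the first base of its gene in the gene table, which for Smarca4 lies upstream of the transcript start of its promoter window. The Smarca4 stretch is chr9:21615919-21616105, with 15 CG dinucleotides in 187 bases, and the Pbrm1 stretch is chr14:31018888-31019137, with 31 in 250 bases.
Smarca4: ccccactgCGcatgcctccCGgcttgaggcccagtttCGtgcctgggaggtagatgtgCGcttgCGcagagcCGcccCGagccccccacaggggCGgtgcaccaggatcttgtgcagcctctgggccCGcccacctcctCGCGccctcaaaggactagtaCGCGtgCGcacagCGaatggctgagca
Pbrm1: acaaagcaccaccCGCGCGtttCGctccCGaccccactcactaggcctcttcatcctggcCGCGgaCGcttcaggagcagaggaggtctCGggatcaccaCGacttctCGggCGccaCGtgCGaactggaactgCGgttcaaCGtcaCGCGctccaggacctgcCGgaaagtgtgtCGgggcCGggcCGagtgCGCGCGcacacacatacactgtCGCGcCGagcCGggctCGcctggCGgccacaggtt

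Promoter windows of 300 bases, 250 of them before the start, were found for 9 of the 10 genes, in 10 windows. By a GC content above 50% and a ratio of observed to expected CG above 0.6, 9 of the 10 windows were CG-rich, against 33.3% of all 32851 windows. The exception was the window of Smarcd2, which held 4 CG dinucleotides and was also the only one with the TATA box letters TATAAA (13.6% of all windows). The GC box letters GGGCGG, which themselves contain a CG, were in 10 of 10 windows and in 35.7% of all. Neither CCAAT (37.4% of all) nor the TCF/LEF letters CTTTGAT (3.73% of all) were found in any of the 10 on either strand. These are matches of letters in 1 window per annotated start, and the arrays do not read promoter activity.

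The deposited values are log2 expression values, 1 per probe set and array. A probe set was tested if its mean over the 6 arrays reached the 25th percentile, a log2 value of 3.62, which 33778 probe sets did. Of the 25 SWI/SNF probe sets 21 did so, and at least 1 did for each of the 10 genes. The other 4 were 1 each of Smarcb1, Smarcc1, Smarcd1 and Smarce1, with control means of 1.63, 3.18, 2.52 and 1.59, and are not described further because their signal was not shown to be above background. The array medians lay between 5.19 and 5.30, and the median log2 fold change over all tested probe sets was -0.033. Of the 33778 probe sets, 0 passed an adjusted p of 0.05 (limma), with or without the replicate number as a block, a background of 0%. None of the 21 did either, while 1163 of all tested probe sets (3.44%) had an unadjusted p under 0.05 (limma). As germ cell markers, 11 of 15 spermatogonial genes were tested, but the defining genes Ddx4, Dazl and Sohlh1 lay under 3.62, and Nanos2 had no probe set of its own. Of the 11, 4 reached the median level of all probe sets, 5.23: Uchl1 (control mean 7.49), Id4 (6.38), Gfra1 (5.93) and Dnd1 (5.85). The log2 of the summed linear signal of the 11 ran from 8.91 to 9.23 in the controls. After mrhl siRNA it ran from 8.89 to 9.30. The log2 of the summed linear signal of 7 tested myoid cell or fibroblast markers ran from 12.6 to 13.5 in the controls and from 13.3 to 13.7 after mrhl siRNA. That of 8 Sertoli cell markers ran from 10.8 to 11.1 and from 11.0 to 11.1, and that of 3 Leydig cell markers from 6.35 to 6.86 and from 6.38 to 6.88. Such a sum is set mostly by its brightest genes, among them Col1a1 (control mean 12.2) and the Sertoli cell gene Wt1 (10.7). The level of 5.23 was reached by 5 of 8 Sertoli cell, 1 of 3 Leydig cell and 5 of 7 myoid cell or fibroblast genes tested. Below it lay the Sertoli cell genes Amh (control mean 4.91), Fshr (3.76) and Cldn11 (3.65). So did the myoid cell or fibroblast genes Tagln (4.53) and Myh11 (3.47). Thy1 and the Leydig cell gene Cyp17a1 lay under 3.62. The part of these markers in the results below was not tested, and in RNA from whole cultures fewer cells of a type and less RNA per cell cannot be told apart.

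Smarca4 encodes the ATPase BRG1, and its 2 probe sets gave different answers. On probe set 1426805_at the 3 control arrays, in the order of their replicate numbers, stood at log2 values of 5.97, 6.43 and 7.08, and the 3 arrays after mrhl siRNA at 7.24, 7.71 and 8.13. Every array after mrhl siRNA was above every control array, although the lowest of them exceeded the highest control by little compared with the spread inside each group. The group means were 6.49 ± 0.56 and 7.69 ± 0.45 (SD, n = 3), a log2 fold change of 1.20, or 2.29-fold. Within pairs of equal replicate number the differences were 1.27, 1.27 and 1.05, so the pairs differed from each other far less than the arrays of a group did. In size this change ranked 27th of the 33778 tested probe sets.

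On the other probe set of Smarca4, 1426804_at, the controls stood at 10.13, 9.85 and 9.91 and the arrays after mrhl siRNA at 10.33, 10.11 and 9.97. Here the groups overlapped. The log2 fold change was 0.17, from 9.96 ± 0.15 to 10.13 ± 0.18 (SD, n = 3), and a change of that size or more was found in 43.3% of all tested probe sets. The differences within pairs were 0.19, 0.26 and 0.06, all of them positive, and their mean was about as large as the SD within a group.

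**Figure D1:**
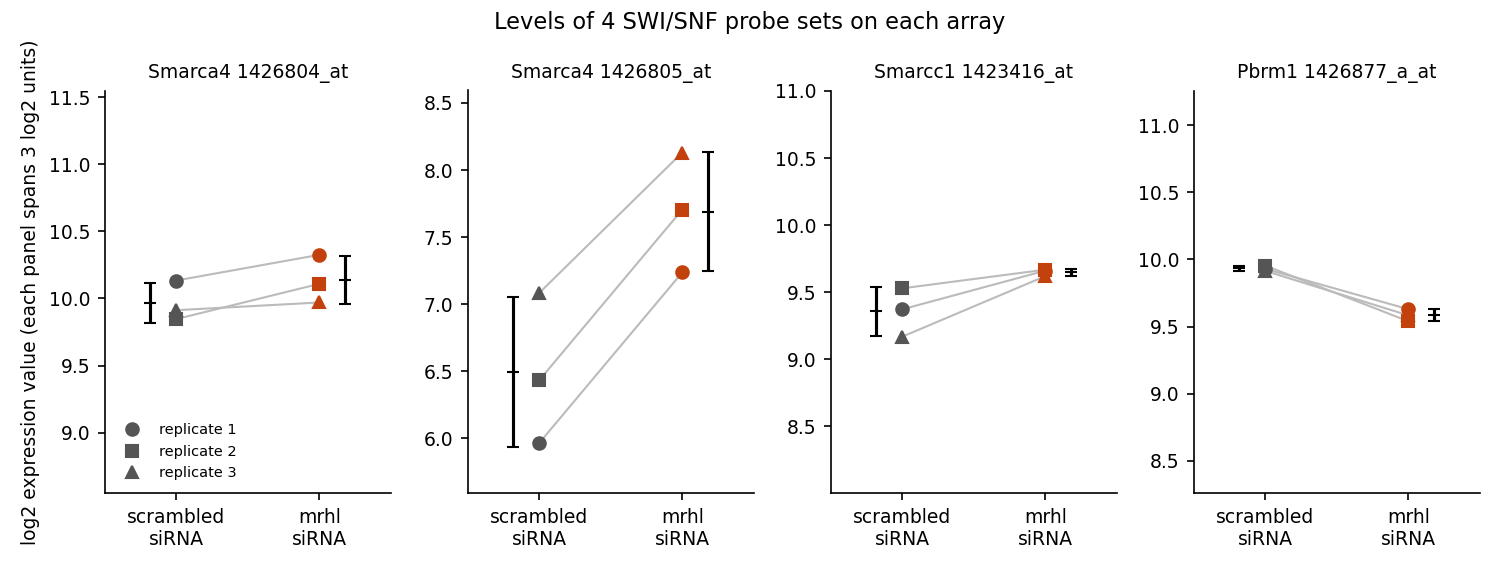
Log2 expression values (vertical axes, each spanning 3 log2 units) of 4 probe sets on the 6 arrays; markers give the replicate number, grey lines join arrays of equal number, and bars beside them are the group mean ± SD (n = 3). Smarca4 1426805_at lies 1.20 higher after mrhl siRNA with nearly parallel lines, Smarca4 1426804_at only 0.17 higher, Smarcc1 1423416_at 0.29 higher and Pbrm1 1426877_a_at 0.35 lower.

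The log2 fold changes of the Smarca4 probe sets differed by 1.08, 1.01 and 0.99 in the 3 pairs, a mean of 1.03 ± 0.048 (SD, n = 3). Among 3823 genes with exactly 2 tested probe sets, 0.706% disagreed by at least as much, and the median disagreement was 0.161. The gene was chosen for this disagreement, so its place among the others is a description only. Over the 6 arrays the values of the 2 probe sets, less the array medians, had a correlation of r = 0.0058. Among the other members with 2 tested probe sets, r was 0.035 for Smarce1, -0.66 for Smarcb1, 0.33 for Smarca2 and 0.76 for Arid1a. A low r was therefore not particular to Smarca4. The probe table gives no target accession for either, and where in the transcript their probes lie was not used here.

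**Figure D2:**
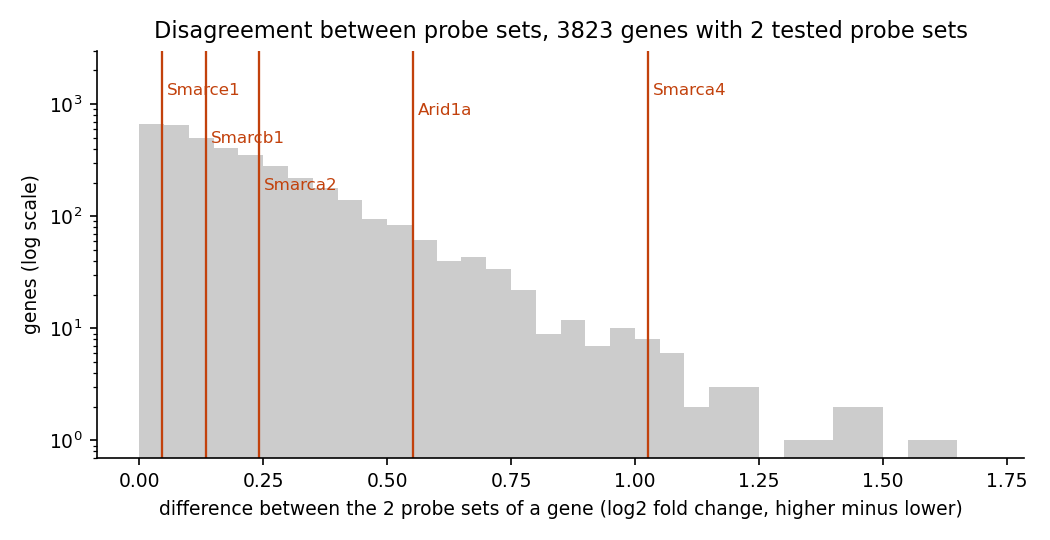
Number of genes (vertical axis, log scale) by the difference between the log2 fold changes of their 2 probe sets (horizontal axis), for 3823 genes with 2 tested probe sets; red lines mark SWI/SNF genes. Smarce1, Smarcb1 and Smarca2 lie within the bulk at 0.046, 0.13 and 0.24, Arid1a is at 0.55, and Smarca4 is at 1.03 in the thin upper tail.

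Smarca2, which encodes the alternative ATPase BRM, differed little on either of its probe sets. Probe set 1430526_a_at stood at 8.90, 8.59 and 8.54 in the controls and 8.87, 8.47 and 8.42 after mrhl siRNA, a log2 fold change of -0.10. Each array after mrhl siRNA was slightly below its control of equal number, and the groups overlapped. Probe set 1452333_at had a log2 fold change of 0.14, from 6.08 ± 0.27 to 6.23 ± 0.18 (SD, n = 3), with pairs on both sides of 0. The paralog of Smarca4 thus showed no difference as large as that of 1426805_at on either probe set, though the difference between the genes was not tested.

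Smarcc1 encodes BAF155, a scaffold subunit, and all 3 of its tested probe sets had positive differences in all 3 pairs. Probe set 1423416_at stood at 9.37, 9.53 and 9.17 in the controls and at 9.66, 9.67 and 9.62 after mrhl siRNA, a log2 fold change of 0.29. The groups did not overlap, and the SD was 0.18 among controls and 0.026 after mrhl siRNA, though 3 arrays estimate an SD poorly. Probe set 1423417_at, with the same target accession in the probe table, gave 6.01, 5.72 and 6.20 against 6.44, 6.40 and 6.47. There the groups did not overlap either, and the log2 fold change was 0.46, or 1.38-fold. Probe set 1455246_at, had 0.27, from 8.25 ± 0.26 to 8.52 ± 0.33 (SD, n = 3), with overlapping groups. The mean over the 3 probe sets differed by 0.36, 0.37 and 0.31 in the 3 pairs. Its paralog Smarcc2, which encodes BAF170, had a single probe set with a log2 fold change of 0.086 and pairs of 0.022, 0.45 and -0.21.

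Smarcd1 encodes BAF60a, a core subunit that contacts transcription factors, and was read through a single tested probe set. Its controls stood at 7.42, 6.91 and 6.93 and the arrays after mrhl siRNA at 7.78, 7.31 and 7.36. The groups overlapped because control replicate 1 was high, but each pair differed by about the same amount, 0.36, 0.40 and 0.43. The log2 fold change was 0.40, or 1.32-fold.

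Smarcd2, which encodes the paralog BAF60b, had 3 probe sets that disagreed. On 1426192_at the controls stood at 7.05, 6.62 and 5.76 and the arrays after mrhl siRNA at 7.88, 7.65 and 6.05, a log2 fold change of 0.72. Both arrays of number 3 were low, so the groups overlapped and their SDs were 0.66 and 1.00. Without control replicate 3 the log2 fold change was 0.36, and without mrhl siRNA replicate 3 it was 1.29. The other probe sets, 1448401_at and 1448400_a_at, had 0.14 and -0.11 with pairs on both sides of 0. The spread of 0.82 between highest and lowest was matched or exceeded by 2.84% of the 1834 genes with 3 tested probe sets.

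The group means of Smarcb1 and Smarce1 differed little. Smarcb1 encodes SNF5, a core subunit that binds the nucleosome surface, and its probe sets had log2 fold changes of 0.064 (1416045_a_at) and -0.071 (1435856_x_at). On the first of these the 6 arrays lay between 9.16 and 9.43. On the second the pairs were 0.24, -0.49 and 0.038, so its small mean covers larger differences of opposite sign. Smarce1, which encodes the HMG-box subunit BAF57, had 0.014 and -0.033, from control means of 9.78 ± 0.18 and 9.29 ± 0.25 (SD, n = 3). In Smarcb1 and in Smarce1 the groups overlapped on both probe sets.

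Arid1a, whose product BAF250a defines the BAF form, again had probe sets that differed. Probe set 1448709_at stood at 9.15, 9.02 and 9.06 in the controls and 9.27, 9.02 and 9.02 after mrhl siRNA, a log2 fold change of 0.026. Probe set 1417440_at stood at 9.10, 8.45 and 8.64 and then at 9.66, 9.51 and 8.75, a log2 fold change of 0.58. All 3 pairs were positive, but they ran from 0.11 in number 3 to 1.06 in number 2, and the groups overlapped. Both probe sets carry the same target accession in the probe table.

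Pbrm1, the gene of the PBAF subunit polybromo, was the only member with a tested probe set whose arrays after mrhl siRNA all lay below the controls. On probe set 1426877_a_at the controls stood at 9.93, 9.95 and 9.91 and the arrays after mrhl siRNA at 9.63, 9.54 and 9.58. The 2 groups were each tight and did not overlap. Their means were 9.93 ± 0.020 and 9.58 ± 0.045 (SD, n = 3), a log2 fold change of -0.35, or 1.27-fold lower, with pairs of -0.30, -0.41 and -0.33. Only 0.663% of tested probe sets had a smaller SD among the controls. Probe set 1427266_at had -0.24, with pairs of -0.18, -0.54 and -0.0074 and overlapping groups. The third, 1426878_at, had 0.051, with 1 pair above and 2 below 0.

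Over the 21 tested probe sets, 15 had a positive and 6 a negative log2 fold change, with a median of 0.086, where 43.8% of all tested probe sets were positive. In 9 of the 21 all 3 pairs were higher after mrhl siRNA, against 14.1% of all tested probe sets, and in 3 of the 21 all 3 pairs were lower, against 23.4%. The groups did not overlap in 3 on the higher side, 1426805_at of Smarca4 and both such probe sets of Smarcc1, against a background of 2.58%. On the lower side this held for 1, that of Pbrm1, against 5.82%. A difference of at least 1.5-fold was found on 2 probe sets, 1 of Smarca4 and 1 of Smarcd2, both higher, against 1.57%, and on 0 on the lower side, against 1.22%. Probe sets of a gene were read on the same arrays and are not separate evidence. Nothing is read from these counts because the comparison was in view when the genes were chosen. Of the 8 genes with at least 2 tested probe sets, 5 had probe sets on both sides of 0. The share over all genes was not counted, so nothing is read from this either.

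**Figure D3:**
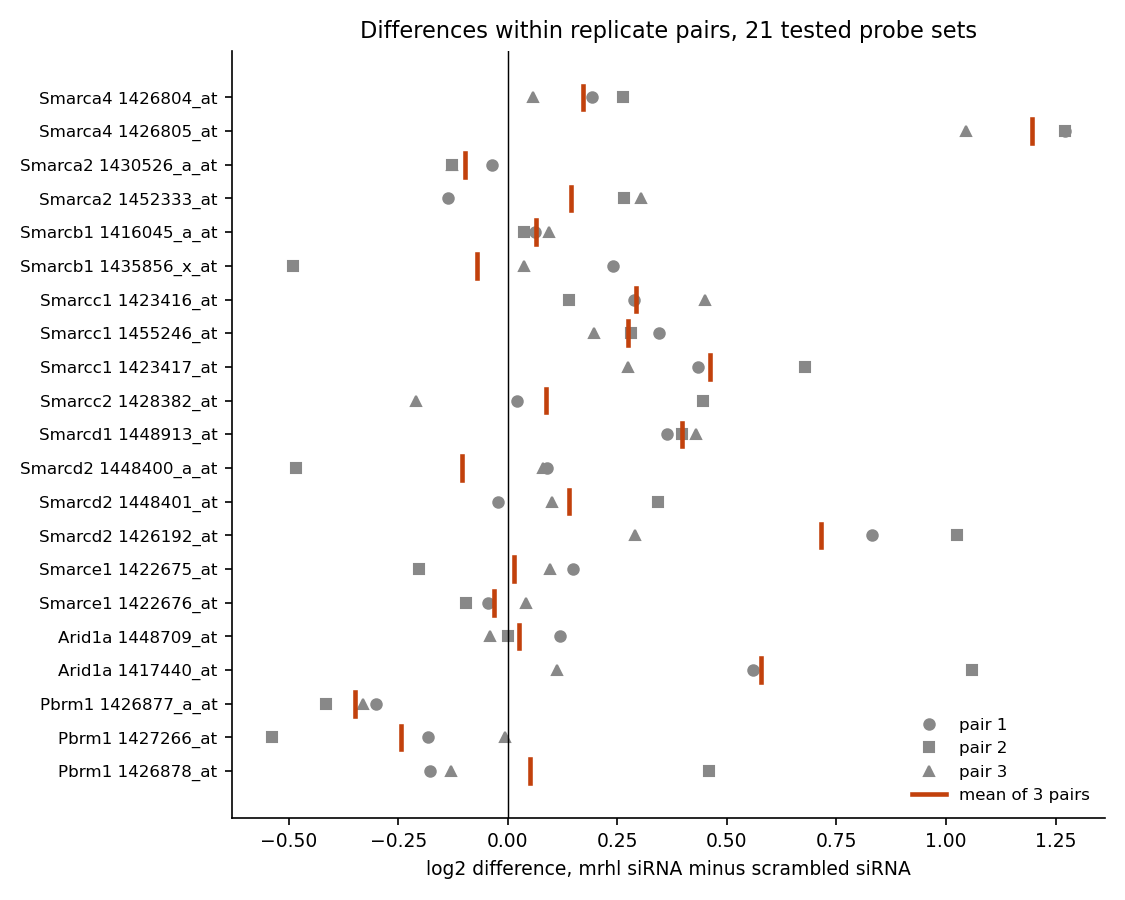
Log2 difference between mrhl siRNA and scrambled siRNA (horizontal axis) in each of the 3 replicate pairs (grey markers) and their mean (red bar) for the 21 tested probe sets (rows). The 3 pairs of Smarca4 1426805_at lie between 1.05 and 1.27, those of Smarcc1 all lie above 0, and 1426877_a_at of Pbrm1 lies between -0.41 and -0.30.

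Some of the member probe sets, but not all, followed the signal of the 18S ribosomal control rows across arrays, in either direction. The mean 18S log2 signal was 3.76, 6.50 and 5.52 on the control arrays and 3.42, 3.37 and 5.72 after mrhl siRNA, so that the group ranges overlapped but control replicate 2 and mrhl siRNA replicate 2 were far apart. Smarca4 1426804_at was lowest where 18S was highest (r = -0.93 over 6 arrays, a description). Each r with 18S is of the probe set values less the array medians. Arid1a 1417440_at (r = -0.96), Smarcd2 1448401_at (r = -0.95) and Smarcc2 (r = -0.91) also had lower values where 18S was higher, while Smarcd2 1448400_a_at (r = 0.92) and Pbrm1 1427266_at (r = 0.93) went the other way. Thus 4 of the 21 were under -0.9 and 2 over 0.9, where 4.09% and 2.08% of all tested probe sets were. For the probe sets with non-overlapping groups r was -0.070 for Smarca4 1426805_at, -0.48 and -0.61 for Smarcc1 and 0.23 for Pbrm1 1426877_a_at.

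With the 18S signal as a covariate, an alternative chosen after seeing the data, the log2 fold change of Smarca4 1426805_at was 1.47 and that of 1426804_at was 0.055. Those of Smarcc1 1423416_at and 1423417_at were 0.30 and 0.43, and that of Pbrm1 1426877_a_at was -0.35. The value of Arid1a 1417440_at went from 0.58 to 0.25, that of Smarcd2 1426192_at from 0.72 to 0.20, that of Smarcd1 from 0.40 to 0.25, that of Smarcc1 1455246_at from 0.27 to 0.088 and that of Pbrm1 1427266_at from -0.24 to -0.081. The log2 signal of the 3′ less the 5′ control row was read as a sign of RNA quality. For beta-actin it lay between 0.42 and 0.63 in the controls and between 0.38 and 0.45 after mrhl siRNA. For the transferrin receptor it lay between 2.04 and 2.48 and between 2.15 and 2.61, lowest on the array of number 3 in each group. For Gapdh it lay between -0.20 and -0.12 and between -0.19 and -0.082. The part of these signals was not tested.

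**Figure D4:**
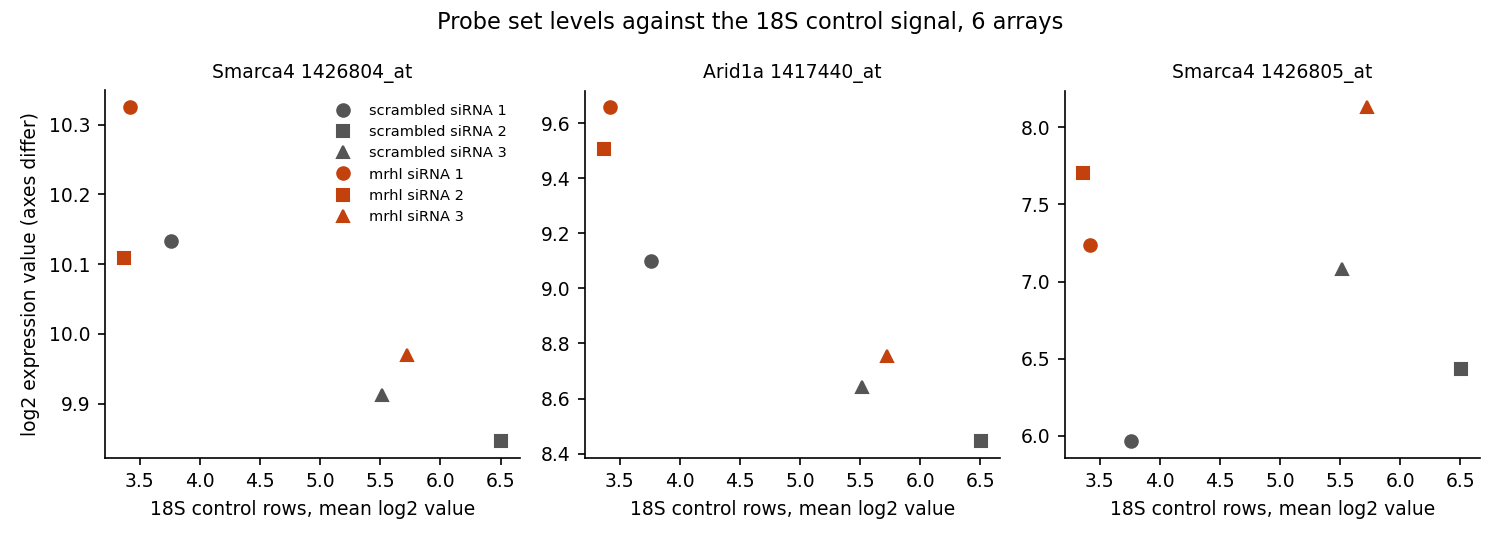
Log2 expression value (vertical axes, which differ in range) against the mean log2 signal of the 18S control rows (horizontal axes) on 6 arrays, for 3 probe sets; grey is scrambled siRNA, red is mrhl siRNA, and the marker gives the replicate number. Smarca4 1426804_at and Arid1a 1417440_at fall as 18S rises (r = -0.93 and -0.96), while Smarca4 1426805_at does not follow it (r = -0.070). The points are values as deposited, and r is of values less the array medians.

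The pattern of Smarca4 1426804_at over the 6 arrays was common on the array. With array medians removed, 5.95% of all tested probe sets had r above 0.9 with it, and 7 of the 19 probe sets of the other members did, 2 of them of Arid1a. The genes most like it were Ogg1, Ganab, Ap1b1, Csnk1d and Anapc5, with r from 0.9986 to 0.9995 over the 6 arrays. The pattern of 1426805_at was rarer. Over all tested probe sets 0.373% had r above 0.9 with it, and among the 19 there were 0. The probe set 1426877_a_at of Pbrm1 ran opposite to it at r = -0.96, and 0.998% of all tested probe sets had r below -0.9. These arrays share groups and pairs, so the correlations carry no test.

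Other subunits of the complex, from a list of 20 genes read through the tested probe set of highest mean, showed no shared direction. All 20 were tested, 0 passed in either direction (limma, with or without the replicate block), 11 were positive and 9 negative, and the median log2 fold change was 0.017. For these and the following lists, SE and adjusted p are from the fit without the block. Over all 14885 genes tested the median was -0.040 and 6264 were positive. The 4 with the smallest p were Bcl7c, Brd7, Phf10 and Actl6b. Bcl7c, a small BAF subunit, was at 0.41 (SE 0.251), with its other probe sets between -0.31 and -0.0015. Actl6b, the neuronal actin-like subunit, was at -0.40 (SE 0.279), from a control mean of 4.13, near the filter level of 3.62. Phf10 and Brd7, which with Pbrm1 belong to the PBAF form, had -0.29 (SE 0.193) and -0.28 (SE 0.173). None of these passed (limma, adjusted p = 0.965 for each). The second probe set of Phf10 had -0.35 and that of Brd7 had 0.063. Arid2, the other large PBAF subunit, was at 0.14 (SE 0.156), and Arid1b, the paralog of Arid1a, at 0.11 (SE 0.136), neither past the test (limma, adjusted p = 0.965 for each). Other probe sets of Arid2 ran from -0.056 to 0.076.

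Other remodelling complexes and Polycomb genes, which oppose SWI/SNF at many loci, were also without a call. Among 11 tested ISWI genes, 4 were positive and 7 negative (median -0.030), with -0.27 (SE 0.201) for the ATPase gene Smarca5, -0.32 (SE 0.159) for Baz2b, 0.37 (SE 0.196) for Cecr2 and 0.40 (SE 0.280) for Baz1a. The control mean of Cecr2 was 3.77, near the filter level of 3.62. Among 20 NuRD and CHD genes 10 were positive (median 0.0029), with -0.39 (SE 0.171) for the helicase gene Chd9, -0.32 (SE 0.173) for the deacetylase gene Hdac2, 0.31 (SE 0.181) for Mbd3 and 0.27 (SE 0.164) for Gatad2a. In the INO80 and SRCAP list 7 of 16 were positive (median -0.0073), with 0.41 (SE 0.164) for Ino80e, 0.43 (SE 0.211) for Vps72, -0.25 (SE 0.165) for Ino80d and 0.20 (SE 0.168) for Kat5. Of 23 tested Polycomb genes 10 were positive (median -0.021), with 0.60 (SE 0.317) for the ubiquitin ligase gene Ring1, -0.36 (SE 0.201) for Phc3, -0.25 (SE 0.162) for Bmi1 and 0.54 (SE 0.403) for Pcgf2. Other probe sets of Smarca5 ran from -0.22 to 0.096, of Baz2b from -0.21 to 0.56, of Chd9 from -0.011 to 0.15, of Gatad2a from -0.034 to 0.27 and of Ino80d from 0.21 to 0.40. The other probe set of Baz1a had -0.21 and that of Pcgf2 -0.15. Those of Hdac2, Phc3 and Bmi1 were negative and those of Ino80e and Kat5 positive. All genes named here had an adjusted p of 0.965 (limma). Read the same way, with Smarca4 counted through 1426804_at, the 10 SWI/SNF genes had a median of 0.045, with 7 positive and 3 negative. Either probe set of Smarca4 gives this median and these counts.

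**Figure D5:**
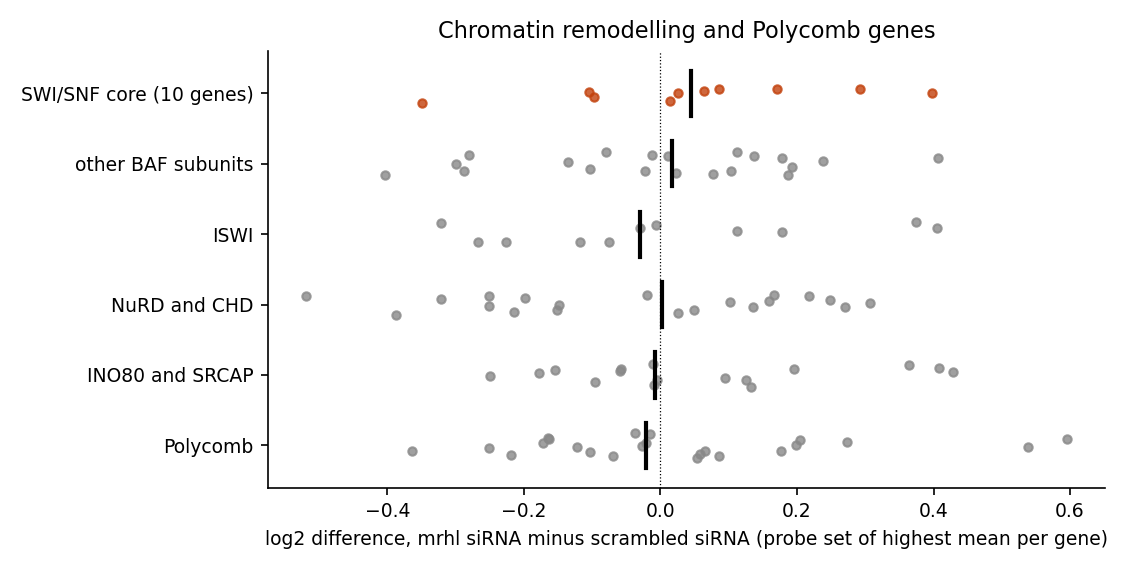
Log2 difference between mrhl siRNA and scrambled siRNA (horizontal axis) for each tested gene of 6 lists (rows), each gene read through its probe set of highest mean; black bars are list medians and the vertical scatter has no meaning. The medians lie between -0.030 for ISWI and 0.045 for the 10 SWI/SNF genes, and the points of every list fall on both sides of 0.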

How the data were processed

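Per the labels, biotin-labelled cRNA of 6 samples was put on Affymetrix arrays, 1 array a sample. The deposited values are log2 expression values, and the submitters' processing notes name GCOS and PLIER, with no version or setting; how background was corrected and arrays were normalized is not given in the sources used here. That the scale is log2 follows from the range of the values. The offset planned for linear values was not needed.

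Genes were named from the probe table: 34945 of 45037 probe sets had 1 symbol, 932 several and 9160 were not listed; 64 control rows were left out. The groups were compared as mrhl siRNA minus scrambled siRNA with limma 3.58.1 (lmFit and eBayes, R 4.3.3) over the 33778 probe sets at or above the 25th percentile, with Benjamini-Hochberg adjustment. The code of the fit was run on simulated data with known changes. These had independent noise, the same SD for every probe set and no replicate effect. The run therefore does not show how the fit performs on these arrays. Precision is limited by the number of arrays, with a median standard error of 0.192, or 0.132 with the block.

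Equal replicate numbers, which the design text's independent experiments allow as pairs, had deviations from the group means correlated at 0.53, 0.20 and 0.57, and unequal numbers at -0.52 to 0.068, so they were read as pairs. The main fit, without the block, does not use these pairs.

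The members and lists were chosen with earlier results of these data known. Every member probe set was to be described, up to 4 genes of each other list were to be named by smallest p, and the 5 genes most like the Smarca4 probe set of highest mean were to be named; Arid2, Arid1b and the markers are named besides. Alternatives were normalization, filter, block, variance model, array weights and arrays left out. Figures were drawn with matplotlib 3.10.9.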

Additional observations from a re-analysis of the deposited data

How the results depend on the processing

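The count of probe sets past the threshold was 0 with the replicate block (limma, smallest adjusted p = 0.213), and it was 0 under both normalizations (quantile, or equal array medians), without the filter or with one at the median level, with array weights, with a trended, robust variance model, with the 18S covariate and with any 1 array left out. With the block and the trended, robust model together, chosen after seeing the data, it was 2, 1 of them Smarca4 1426805_at, on a contrast that was in view when the gene was chosen. Groups without overlap were found in 2839 probe sets; with 1 array left out this count lay between 4422 and 8971, and with both arrays of number 1 left out, added later, it was 11213, since fewer arrays overlap less often.

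With any 1 array left out, the log2 fold change of Smarca4 1426805_at lay between 0.93 (without control replicate 1) and 1.49 (without control replicate 3), that of 1426804_at between 0.075 and 0.26 and that of Pbrm1 1426877_a_at between -0.37 and -0.33. The widest such range of a member was that of Smarcd2 1426192_at, 0.36 (without control replicate 3) to 1.29 (without mrhl siRNA replicate 3). The log2 fold change of Smarcc1 1455246_at was 0.090 without mrhl siRNA replicate 1 and 0.42 without control replicate 1. That of Smarcd1 was 0.25 and 0.56 without the same arrays. That of Pbrm1 1427266_at was -0.38 without mrhl siRNA replicate 3 and -0.16 without mrhl siRNA replicate 2. Sign changes under any alternative came only in probe sets whose main value was at most 0.11 in size, and under the block, both normalizations, both filters and the variance model there were 0. Averaging the 2 Smarca4 probe sets gave 0.68, a value that neither of them shows.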
